A study of Mus musculus with 1 sample.

Results

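Cycling chromaffin cells were studied in the mouse adrenal medulla at postnatal day (P) 15. They were chosen by their own transcripts, counted as unique molecular identifiers (UMIs). A barcode was taken as a cycling chromaffin cell when at least 4 of the 7 chromaffin genes *Th*, *Ddc*, *Dbh*, *Cyb561*, *Slc18a1*, *Chgb* and *Chga* had a UMI, and at least 3 of the 6 cycle genes *Cenpf*, *Cks2*, *Prc1*, *Hmgb2*, *Birc5* and *Ube2c*. It also had to show fewer than 3 genes of each of 3 short lists that mark cortex (such as *Star*), endothelial (such as *Emcn*) and immune cells (such as *C1qa*). This rule was met by 94 of the 10139 barcodes with 500 to 5000 genes and at most 20% mitochondrial UMIs, among 11214 barcodes in all. The same chromaffin rule with at most 1 cycle gene gave 2258 non-cycling chromaffin cells for comparison, and 146 chromaffin cells had exactly 2 cycle genes. The levels of the rule's cycle genes in these groups, and the presence of its chromaffin genes, follow from the choice of cells and are not results.

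All cells came from 1 droplet library of wild-type mice with no treatment named in the labels. The adrenals, 10 from 5 mice of mixed sex, were pooled after part of the cortex had been removed by hand, and 10000 viable cells were used. A UMI stands for 1 captured 3′ end, so levels are given as UMIs per 1000000 UMIs of a group (CPM), with no division by gene length. With 1 library and pooled animals there are no replicates and no test between samples. Values in parentheses after a level, share or ratio are exact 95% intervals, which cover counting error only.

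Chromaffin cells are neural crest-derived endocrine cells that release catecholamines, which they store with granins and neuropeptides in dense-core granules. *Th*, *Ddc* and *Dbh* encode the enzymes that lead to noradrenaline, and *Pnmt* the enzyme that turns noradrenaline into adrenaline. A dividing cell copies its DNA in S phase with licensing and replication fork proteins, and then condenses its chromosomes and builds kinetochores and a spindle in G2 and M phase.

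The cycling chromaffin cells were covered more deeply than the non-cycling ones. They held 684262 UMIs in all, with a lowest, median and highest value of 1123, 6685.5 and 20094 UMIs per cell. The median was 3155 UMIs in non-cycling cells and 6483.5 UMIs in cells with 2 cycle genes. Since a deeper cell shows more genes, shares of cells are also given with every cell thinned to 2000 UMIs. All 6 cycle genes were found in 35 of the 94 cells, 5 in 20, 4 in 14 and 3 in 25. All 7 chromaffin genes were found in 54 of them.

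Cycling cells made up 3.76% (3.05 to 4.59) of the 2498 chromaffin cells, and 2.96% (2.27 to 3.79) when cycle genes were counted in 2000 UMIs per cell. Cortex and endothelial cells were taken by at least 3 genes of their own list and fewer than 3 of each other list. By the same 6 genes, 7.89% (7.01 to 8.84) of cortex cells and 17.1% (15.4 to 18.8) of endothelial cells of the library were cycling. At 2000 UMIs these shares were 4.93% (4.21 to 5.74) and 19.6% (17.2 to 22.1). Under these rules the chromaffin share was the lowest of the 3 lineages in both counts, with intervals that did not overlap those of the others. It also depends on the exclusion of barcodes with genes of other cell types. That step left out 82 of 176 barcodes with enough chromaffin and cycle genes. Of 3033 barcodes with enough chromaffin genes it kept 2498. The same effect in the other lineages was not tested. Cells under 2000 UMIs, left out of the second count, numbered 437 chromaffin, 180 cortex and 944 endothelial cells.

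The name of the cells was checked with markers that the rule did not use. *Mki67* (ENSMUSG00000031004), which encodes the proliferation antigen Ki-67, had a lowest, median and highest count of 0, 1 and 16 UMIs per cycling cell and was found in 61 of 94 cells. Its level was 304 CPM (264 to 348) against 1.57 CPM (0.880 to 2.59) in non-cycling cells. *Top2a* (ENSMUSG00000020914), which encodes a topoisomerase that disentangles DNA before chromosomes part, had 0, 3 and 17 UMIs and was found in 66 cells, at 544 CPM (489.8 to 602) against 1.78 CPM (1.04 to 2.85). At least 1 of these genes was found in 75 of 94 cycling cells, 79.8% (70.2 to 87.4), and in 31 of 2258 non-cycling cells, 1.37% (0.935 to 1.94). At 2000 UMIs the shares were 64.8% (53.9 to 74.7) and 0.654% (0.338 to 1.14). Most of the cycling cells therefore carried a cycle marker outside the rule, and most non-cycling cells did not.

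Around the threshold the levels were graded. *Mki67* was at 13.5 CPM in cells with 2 cycle genes, 91.9 CPM in those with 3 and 508 CPM in those with 6, and *Top2a* at 23.5, 149.9 and 927 CPM. Either gene was found in 18 of 146, 13 of 25 and 32 of 35 of these cells. *Chga* was at 15798, 15393 and 13877 CPM.

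*Chga* and *Th* belong to the rule, so their presence follows from the choice of cells and their counts are given as a description. *Chga* (ENSMUSG00000021194), which encodes the granule protein chromogranin A, had a lowest, median and highest count of 10, 86.5 and 338 UMIs per cycling cell. *Th* (ENSMUSG00000000214) had 0, 10 and 51 UMIs and was found in 91 of 94 cells. In non-cycling endothelial cells, which should lack both, 5.96% of cells had a *Chga* UMI and 2.25% a *Th* UMI, at a median of 1805 UMIs per cell. The *Chga* level there was 29.3 CPM against 14674 CPM in the cycling chromaffin cells, a gap that the choice of cells also sets.

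Levels were then compared between cycling and non-cycling chromaffin cells. Among 6215 genes with a mean of at least 20 CPM over the groups, rule genes left out, 249 were at least 2-fold higher in cycling cells (4.01%) and 45 at least 2-fold lower (0.724%), on the scale of log2(CPM + 1). These counts moved with the setting. With every cell thinned to 2000 UMIs 685 genes were higher and 344 lower, and between cells of like depth, compared after the data had been seen, 369 and 198. The median log2 ratio of all tested genes was 0.05. The cell cycle lists, with the phase lists of Seurat, held 112 of the higher genes and 0 of the lower ones. Cycle genes move with the genes that chose the cells, and a gene near 0 in non-cycling cells passes the level filter only through the cycling cells. The counts within the cycle lists therefore describe these cells, and nothing is read from them against the background.

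**Figure D1:**
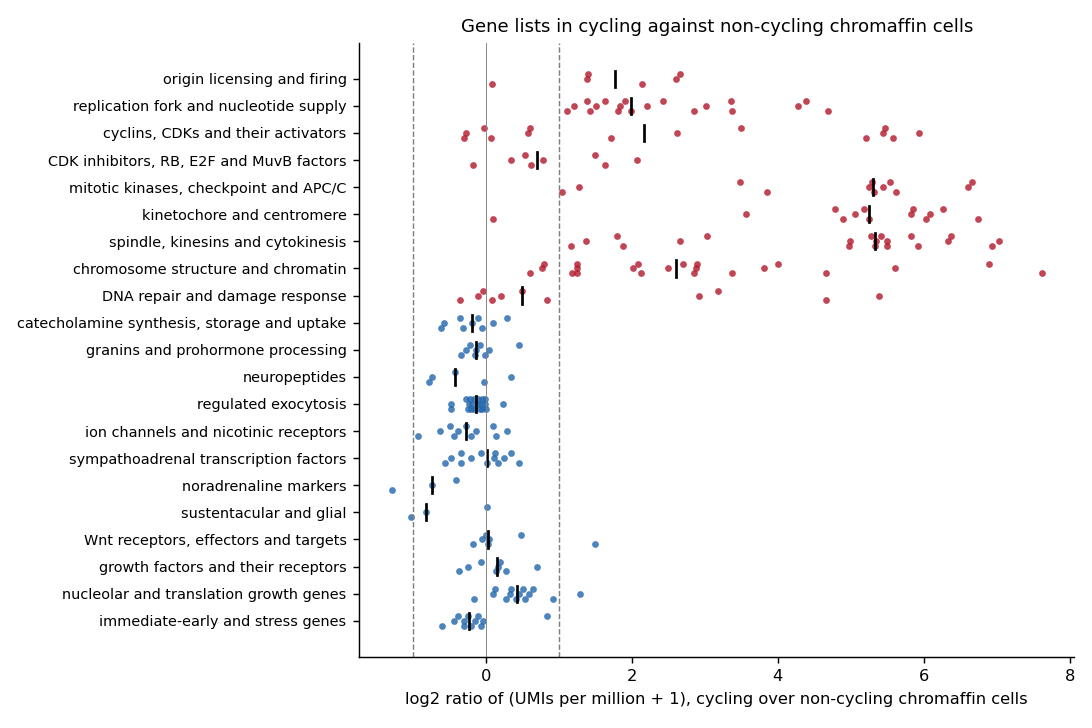
Each point is a tested gene, placed by its log2 ratio of CPM + 1 in cycling over non-cycling chromaffin cells and grouped by gene list (red, cell cycle; blue, other); black bars are list medians and dashed lines mark 2-fold. The mitotic kinase, kinetochore and spindle lists have medians between 5.25 and 5.34, and the chromaffin lists from catecholamine synthesis to transcription factors between -0.42 and 0.02.

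The mitotic lists had the highest medians. The cells were chosen by genes that are mostly of G2 and M phase, and the level filter adds to this order, so it is a description. All 12 tested of 18 mitotic kinase, checkpoint and APC/C genes were past 2-fold, with a median log2 ratio of 5.30, as were all 20 tested of 27 spindle, kinesin and cytokinesis genes, with a median of 5.34. Of 13 tested kinetochore and centromere genes 12 were past 2-fold, and *Zwint*, at 232 against 216 CPM, was not. *Tpx2*, which nucleates spindle microtubules, was at 239.7 against 0.839 CPM. *Spc25*, a subunit of the NDC80 kinetochore complex, was at 206 against 0.943 CPM. *Cdca8* (borealin), of the chromosomal passenger complex, was at 209 against 1.15 CPM, and *Hmmr*, a spindle-associated protein, at 197 against 0.629 CPM. These genes were close to 0 in non-cycling cells, where *Tpx2* was found in 0.354% of cells against 55.3% of cycling cells.

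Replication genes were higher by smaller ratios and from a higher baseline, and their difference from the mitotic lists is likewise a description. All 19 tested of 32 replication fork and nucleotide supply genes were past 2-fold, with a median log2 ratio of 1.99, as were 5 of 6 tested licensing and firing genes, with a median of 1.77. *Lig1*, which joins Okazaki fragments, was at 158 against 21.0 CPM, *Dut*, which breaks down dUTP, at 278 against 77.0 CPM, and *Gmnn* (geminin), which prevents a second licensing, at 97.9 against 14.7 CPM. Of 22 tested chromosome and chromatin genes 19 were past 2-fold. The histone variant *H2afz* had a lowest, median and highest count of 1, 22 and 59 UMIs per cycling cell and 0, 2 and 29 per non-cycling cell, so that the ranges overlapped while the medians lay far apart. Of 11 tested DNA repair and damage genes 4 were past 2-fold, namely *Clspn*, *Rad51ap1*, *Brca2* and *Topbp1*, and *Trp53* was not, with a log2 ratio of -0.11.

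Cyclins named here were grouped by the phase in which they act. The cells were chosen by genes that are mostly of G2 and M phase, so this grouping is a description. Cyclins of S, G2 and M phase and their kinase had log2 ratios of 5.93 for *Ccnb1*, 5.57 for *Ccna2*, 5.47 for *Ccnb2* and 5.45 for *Cdk1*, genes named after their values were seen. The E-type cyclin *Ccne2*, also named after its value was seen, was at 43.8 against 6.29 CPM, a log2 ratio of 2.62. *Ccne1* was not among the tested genes, so E-type cyclins were not read as a group. D-type cyclins, which act in G1, were not higher. *Ccnd1* was at 83.3 against 102 CPM, a ratio of 0.817 (0.614 to 1.07), and *Ccnd2* at 322 against 389 CPM, a ratio of 0.827 (0.718 to 0.948). Of the CDK inhibitors, *Cdkn1a* (p21) was at 107 against 33.8 CPM, a ratio of 3.16 (2.42 to 4.09). *Cdkn2c* (p18) had a ratio of 4.41 (3.07 to 6.23) and *Cdkn2d* (p19) of 2.85 (2.29 to 3.53), whereas *Cdkn1b* (p27) was at 83.3 against 93.6 CPM, a ratio of 0.890 (0.669 to 1.16). Cycling chromaffin cells thus held more p21, p18 and p19 transcript, and p27 and cyclin D1 did not differ beyond counting error.

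The other lineages were read for *Ccnd1*, *Ccnd2* and the CDK inhibitors named above, each cycling group against its own non-cycling cells. The ratio of *Ccnd1* was 0.690 (0.485 to 0.958) in cortex and 0.876 (0.811 to 0.947) in endothelial cells, and that of *Ccnd2* was 0.740 (0.653 to 0.837) and 0.701 (0.630 to 0.780). *Cdkn1a* had ratios of 5.28 (4.25 to 6.55) and 1.46 (1.28 to 1.66), *Cdkn2c* of 9.34 (7.29 to 12.0) and 6.44 (4.24 to 10.00), and *Cdkn2d* of 6.84 (5.82 to 8.04) and 4.07 (2.92 to 5.72). *Cdkn1a*, *Cdkn2c* and *Cdkn2d* were thus higher in the cycling cells of all 3 lineages. *Cdkn1b* had a ratio of 1.62 (1.28 to 2.03) in cortex and 1.10 (0.847 to 1.43) in endothelial cells. Levels differed between the cycling cells of the lineages. *Ccnd1* in cycling chromaffin cells was 5.54 (3.63 to 8.51) times its level in the 270 cycling cortex cells and 0.133 (0.0995 to 0.173) times that in the 337 cycling endothelial cells. *Mki67* was at 0.730 (0.626 to 0.847) and 0.494 (0.423 to 0.576) times, and *Top2a* at 0.901 (0.803 to 1.01) and 0.753 (0.667 to 0.849) times, these levels. *Stmn1* (stathmin), which destabilises microtubules, was at 2.71 (2.48 to 2.96) and 1.61 (1.47 to 1.76) times. *Mns1*, a gene of sperm flagella and motile cilia, was at 4.47 (3.04 to 6.59) and 5.03 (3.11 to 8.36) times, and the non-coding *Eldr* at 2.91 (1.87 to 4.50) and 3.65 (2.11 to 6.47) times. *Mns1* and *Eldr* were low in non-cycling chromaffin cells, at 6.92 and 1.15 CPM.

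**Figure D2:**
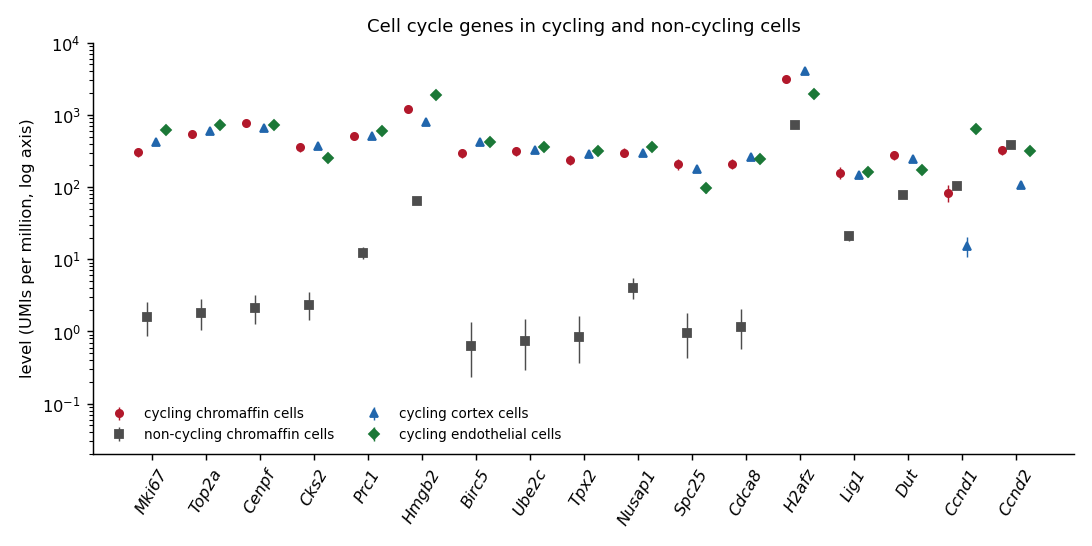
Levels of cycle genes (CPM, log axis) in 94 cycling and 2258 non-cycling chromaffin cells, 270 cycling cortex and 337 cycling endothelial cells; bars are exact 95% intervals of counting error. For *Mki67* and *Top2a* all 3 cycling groups lie far above the non-cycling chromaffin cells, with the cycling chromaffin cells the lowest of the 3 for *Mki67*, and for *Ccnd1* the cycling chromaffin cells lie beside the non-cycling ones, at 83.3 and 102 CPM.

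Sequence before the start of these genes was read from RefSeq windows of build GRCm38.p6. Many G2 and M genes are known to be controlled through a cell cycle homology region (CHR, searched as TTTGAA) and CCAAT boxes (searched as CCAAT), and many S phase genes through E2F sites (searched as TTTGGCGC or TTTCCCGC), all on both strands. The 200 bases before the start are shown 5′ to 3′ on the strand of the gene, with matches in capitals. *Top2a* (chr11:99024190-99024389, - strand) and *Mki67* (chr7:135716380-135716579, - strand) are shown as markers outside the rule, *Ube2c* (chr2:164769729-164769928, + strand) and *Hmgb2* (chr8:57511643-57511842, + strand) as rule genes, and *Th* (chr7:142899996-142900195, - strand) as a chromaffin gene.
Top2a: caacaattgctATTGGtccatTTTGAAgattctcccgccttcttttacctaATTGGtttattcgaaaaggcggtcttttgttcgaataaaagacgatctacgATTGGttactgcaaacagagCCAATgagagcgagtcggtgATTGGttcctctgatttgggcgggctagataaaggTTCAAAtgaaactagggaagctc
Mki67: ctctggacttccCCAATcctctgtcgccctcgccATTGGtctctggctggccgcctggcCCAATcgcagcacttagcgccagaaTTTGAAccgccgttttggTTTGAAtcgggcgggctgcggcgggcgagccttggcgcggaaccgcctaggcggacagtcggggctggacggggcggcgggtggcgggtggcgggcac
Ube2c: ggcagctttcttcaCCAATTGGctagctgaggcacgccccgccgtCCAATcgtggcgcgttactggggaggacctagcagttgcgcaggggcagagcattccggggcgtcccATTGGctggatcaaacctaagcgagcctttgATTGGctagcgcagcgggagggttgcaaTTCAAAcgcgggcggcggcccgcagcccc
Hmgb2: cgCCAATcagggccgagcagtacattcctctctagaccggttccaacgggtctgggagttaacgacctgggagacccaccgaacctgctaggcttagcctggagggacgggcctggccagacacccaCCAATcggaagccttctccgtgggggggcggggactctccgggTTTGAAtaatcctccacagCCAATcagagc
Th: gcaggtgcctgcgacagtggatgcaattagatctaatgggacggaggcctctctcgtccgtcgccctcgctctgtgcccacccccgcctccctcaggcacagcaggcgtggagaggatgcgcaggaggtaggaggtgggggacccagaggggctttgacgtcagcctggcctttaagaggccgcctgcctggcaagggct

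*Top2a* held 5 CCAAT and 2 TTTGAA matches in this stretch, *Mki67* 3 and 2, *Ube2c* 5 and 1, and *Hmgb2* 3 and 1. In *Ube2c* a pair of CCAAT matches overlaps on opposite strands, and *Th* held no match. Over windows of 300 bases, from 250 before to 50 after the start, TTTGAA and CCAAT were found together in 22 of 42 windows of mitotic genes past 2-fold (52.4%), where 37 of 44 genes had a window. They were found together in 6.95% of all 32851 windows, 7.69% of 26 windows of replication genes and 4.88% of 41 windows of chromaffin genes. An E2F match was found in 26.9% of the replication windows, 4.76% of the mitotic windows and 1.56% of all windows. CCAAT, with or without TTTGAA, was frequent in both kinds of cycle gene, at 73.8% and 65.4% against 37.4% of all windows. TTTGAA thus went with the mitotic genes and E2F letters with the replication genes, as a description of sequence and not of binding.

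Genes of the chromaffin programme were within 2-fold, as were most tested genes. None of 9 tested catecholamine genes, 9 granin and prohormone processing genes, 5 neuropeptides, 20 exocytosis genes, 11 ion channel and nicotinic receptor genes or 13 sympathoadrenal transcription factors was past 2-fold in either direction, beside 4.01% higher and 0.724% lower of all tested genes, so these counts of 0 are near the background. The list medians lay between -0.42 and 0.02 on the log2 scale, beside 0.05 for all tested genes. *Chga*, *Chgb*, *Th* and *Dbh* helped to choose both groups, which differ in depth, so their ratios are a description. *Chga* was at 14674 against 18852 CPM, a ratio of 0.778 (0.763 to 0.794), *Chgb* (chromogranin B) at 37516 against 50888 CPM, a ratio of 0.737 (0.728 to 0.747), and the ratios of *Th* and *Dbh* were 0.840 (0.791 to 0.892) and 0.974 (0.908 to 1.04). Of genes outside the rule, *Scg2* (secretogranin II) had a ratio of 0.790 (0.763 to 0.817), *Pnmt* of 0.876 (0.852 to 0.901) and *Npy*, a co-released neuropeptide, of 0.985 (0.959 to 1.01). Per cell the counts of *Chga* were not lower, with a median of 86.5 UMIs in cycling and 64 in non-cycling cells, at their different depths.

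Cells of like class and like depth were compared as well, both chosen after the data had been seen. Among cells with a high *Pnmt* level only, a class set by *Pnmt* itself, 75 cycling and 1519 non-cycling, the ratio was 0.721 (0.705 to 0.736) for *Chga*, 0.717 (0.707 to 0.727) for *Chgb*, 0.785 (0.757 to 0.815) for *Scg2*, 0.750 (0.728 to 0.772) for *Pnmt* and 0.990 (0.913 to 1.07) for *Dbh*. Between 46 cycling and 657 non-cycling cells with 3948.75 to 9352.25 UMIs, it was 0.877 (0.852 to 0.903) for *Chga*, 0.770 (0.756 to 0.785) for *Chgb*, 0.828 (0.787 to 0.871) for *Scg2*, 1.01 (0.971 to 1.06) for *Pnmt* and 0.907 (0.814 to 1.01) for *Dbh*. Only this range of UMIs was matched, and the medians still differed, at 6685.5 UMIs in cycling and 5651 in non-cycling cells. *Scg2*, outside the rule, was lower in all 3 comparisons, whereas *Pnmt* was lower in all cells and among *Pnmt*-high cells while among cells of like depth its interval included 1. With every cell thinned to 2000 UMIs the *Pnmt* ratio was 0.750.

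**Figure D3:**
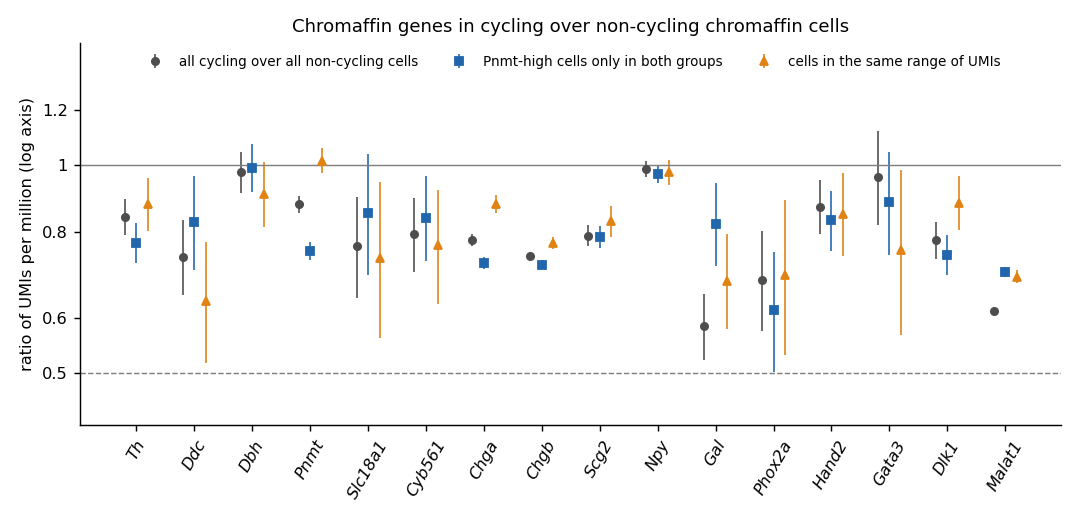
Ratio of CPM in cycling over non-cycling chromaffin cells (log axis) for chromaffin genes, *Dlk1* and *Malat1*, in all cells (circles), in *Pnmt*-high cells (squares) and in cells of like depth (triangles); bars are exact 95% intervals of counting error and the dashed line marks 0.5. *Scg2* lies below 1 in all 3 comparisons, *Npy* lies close to 1, and the interval of *Pnmt* includes 1 only among cells of like depth.

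Transcription factors of the lineage were kept. *Hand2* was at 761 against 876 CPM and *Gata3* at 253 against 264 CPM, both of them regulators of sympathoadrenal differentiation. *Phox2a*, a homeobox factor of noradrenergic cells, was at 224 against 329 CPM, a ratio of 0.681 (0.575 to 0.801).

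Cycling cells were divided by genes of adrenaline and noradrenaline cells. A cell was called *Pnmt*-high at 1000 CPM or more of *Pnmt*, and noradrenaline-marked at 500 CPM or more of *Cox8b*, *Penk* and *Lix1* together, genes taken as marks of noradrenaline cells. Of the 94 cells, 75 were *Pnmt*-high only, 79.8% (70.2 to 87.4), 10 were noradrenaline-marked only, 10.6% (5.22 to 18.7), 3 were both and 6 were neither. The classes are set by these genes, so their counts describe the classes and do not test them. The 75 *Pnmt*-high cells held 4939 UMIs of *Pnmt* but 4 of *Cox8b*, 1 of *Penk* and 8 of *Lix1*. The 10 noradrenaline-marked cells held 6 UMIs of *Pnmt* and 134, 27 and 46 of the others, and *Cox8b* was found in 9 of them. Their *Th* level was close to that of *Pnmt*-high cells, 1516 against 1734 CPM, and their *Chga* level lower, 5349.9 against 16779 CPM. Within 2-fold of a limit lay 5 cells for *Pnmt* and 8 for the noradrenaline genes. In non-cycling endothelial cells 2.45% counted as *Pnmt*-high and 0.529% as noradrenaline-marked.

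**Figure D4:**
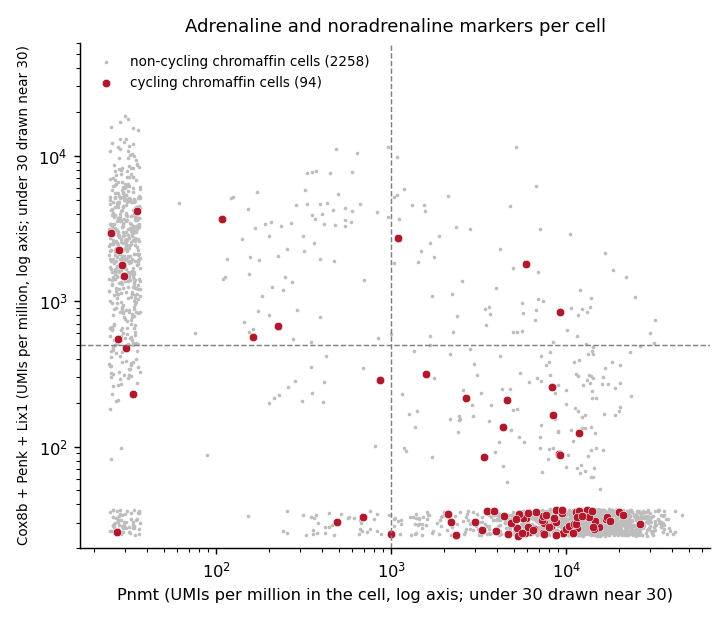
*Pnmt* against the sum of *Cox8b*, *Penk* and *Lix1* in each chromaffin cell (CPM of the cell, log axes, values under 30 drawn near 30), with dashed lines at 1000 and 500 CPM. Of the 94 cycling cells (red), 75 lie in the *Pnmt*-high field and 10 in the noradrenaline-marked field; grey points are the 2258 non-cycling cells.

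Noradrenaline-marked cells, with or without *Pnmt*, were 13 of 94 cycling cells, 13.8% (7.57 to 22.5), and 584 of 2258 non-cycling cells, 25.9% (24.1 to 27.7). At 2000 UMIs per cell the shares were 17.0% (9.87 to 26.6) and 29.3% (27.2 to 31.4), with intervals that did not overlap. Counted from the classes, 4.44% (3.51 to 5.53) of cells with *Pnmt* only and 1.74% (0.839 to 3.18) of cells with noradrenaline markers only were cycling, at median depths of 3287 and 3471 UMIs. *Mki67* or *Top2a* was found in 5.68% (4.63 to 6.89) and 2.79% (1.60 to 4.49) of them. At 2000 UMIs the cycling shares were 3.56% (2.65 to 4.67) and 0.858% (0.234 to 2.18), and those with *Mki67* or *Top2a* 4.13% (3.15 to 5.30) and 1.72% (0.744 to 3.35), where the latter intervals overlap. The share of noradrenaline-marked cells was not graded with the number of cycle genes, with 5 of 25 cells at 3 genes, 0 of 14 at 4, 5 of 20 at 5 and 3 of 35 at 6. Among cells with 2 cycle genes it was 48 of 146, 32.9% (25.3 to 41.1), and with these cells counted as cycling the share became 25.4%. The lower share among cycling cells therefore depends on where the threshold lies.

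Position in the cycle was read from the S and G2M lists of Seurat without the rule genes, 43 and 49 genes. The cycling cells held 2 to 196 UMIs of these lists with a median of 48, against a median of 4 in non-cycling cells. In 53 cells, 56.4% (45.8 to 66.6), G2M UMIs were more than 2 times the S UMIs, and in 40 cells, 42.6% (32.4 to 53.2), neither list exceeded the other by 2 times. No cell was S-weighted, which allows a share of up to 3.85%, and 1 cell had under 5 such UMIs. The rule genes are mostly genes of G2 and M phase, and 31 of the 35 cells with all 6 were G2M-weighted, whereas 17 of the 25 cells with 3 lay in the middle range. Of the non-cycling cells 67, or 2.97% (2.31 to 3.75), reached the median S list level of the cycling cells (1771 CPM). The median G2M list level of the cycling cells (5537 CPM) was reached by 0 non-cycling cells. Non-cycling cells held a median of 3155 UMIs, and at that depth such an S list level rests on few UMIs. Whether these 67 cells were in S phase was not tested.

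**Figure D5:**
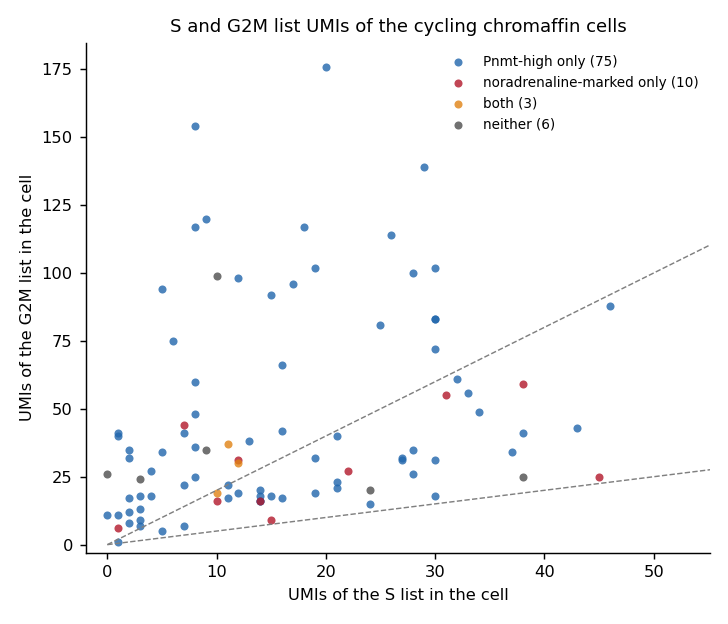
UMIs of the S list (x axis) against UMIs of the G2M list (y axis) in each of the 94 cycling chromaffin cells, coloured by class; dashed lines bound the middle range. 53 cells lie above the upper line, and 7 of the 10 noradrenaline-marked cells lie between the lines.

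Other genes differed between these ranges. *Pclaf*, a PCNA-binding factor, was higher in the middle range than in G2M-weighted cells, with a ratio of 2.66 (1.85 to 3.90), as were *Lig1* at 2.82 (1.82 to 4.48) and the cohesin acetyltransferase *Esco2* at 2.21 (1.16 to 4.39). *Cdkn3*, a phosphatase of cyclin-dependent kinases, was lower there, with a ratio of 0.162 (0.0492 to 0.418), as were *Pttg1* (securin) at 0.165 (0.0961 to 0.270) and *Mns1* at 0.228 (0.107 to 0.443). Chromaffin genes were present in both ranges. Among *Pnmt*-high cells *Chga* was at 17492 CPM in the middle range and 16188 CPM in G2M-weighted cells, and *Pnmt* at 9680.0 and 8645 CPM.

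Few WNT, growth and stress genes were past 2-fold. Of all tested genes 4.01% were higher and 0.724% lower, and in lists of this size nothing particular is read from the counts. *Lgr5*, a WNT target and R-spondin receptor, was at 298 against 289 CPM, a ratio of 1.03 (0.889 to 1.19), and *Axin2*, a feedback target, at 35.1 against 24.7 CPM, a ratio of 1.42 (0.891 to 2.16). *Lef1*, a WNT effector, and the ligand *Wnt6* had 4 and 4 UMIs in the cycling cells. Of 7 tested WNT genes 1 was past 2-fold, the transcription factor *Tcf7l2*, at 43.8 against 14.9 CPM with a ratio of 2.95 (1.92 to 4.39), found in 22 of 94 cells. None of 8 tested growth factor and receptor genes was past 2-fold. Of 14 nucleolar and translation genes 1 was, *Ran*, a GTPase of nuclear transport and spindle assembly, at 479 against 194 CPM. The median log2 ratio of these 14 genes was 0.43, beside 0.05 for all tested genes. None of 12 tested immediate-early and stress genes was past 2-fold in either direction, with *Fos* at 1035 against 1190.1 CPM. Their log2 ratios ran from -0.60 to 0.85 with a median of -0.22, so being within 2-fold does not mean unchanged.

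Outside the cycle lists the highest ratios were those of *Pclaf*, *Lockd*, *Diaph3*, *Esco2*, *Cenpp*, *Arhgap11a*, *Eldr*, *Mns1*, *Cdkn3* and *Fbxo5*, several of which are known from replication or mitosis. *Pclaf* was at 219 against 2.20 CPM, *Diaph3*, an actin-nucleating formin, at 90.6 against 1.68 CPM, and *Fbxo5* (EMI1), an inhibitor of APC/C, at 61.4 against 2.52 CPM. *Lockd*, a non-coding RNA next to *Cdkn1b*, was at 229 against 9.33 CPM, while *Cdkn1b* itself did not differ beyond counting error.

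Of all tested genes *Hba-a1*, a haemoglobin gene, had the lowest log2 ratio, -5.72. *Apoe* ranked lowest once a gene had to be detected in 25% or more of cells in the group where it was higher. *Apoe*, a lipid carrier, was at 284 against 736 CPM, a ratio of 0.385 (0.332 to 0.444), but was found in 28.7% of cycling and 25.1% of non-cycling cells. *Cox8b* was at 239.7 against 585 CPM and was found in 16.0% and 25.6% of cells. *Malat1*, a nuclear non-coding RNA, was at 24882 against 40557 CPM, a ratio of 0.614 (0.604 to 0.623), and *Gal* (galanin) at 506 against 867 CPM, a ratio of 0.583 (0.522 to 0.650). Among *Pnmt*-high cells alone the ratio was 0.821 (0.714 to 0.941) for *Gal*, 0.699 (0.688 to 0.711) for *Malat1* and 0.505 (0.389 to 0.647) for *Apoe*. All 3 genes were lower within the *Pnmt*-high class too. Of 3 tested of 14 sustentacular and glial genes 1 was past 2-fold and lower, *Fabp7*, at 24.8 against 51.7 CPM, beside 0.724% lower of all tested genes, and nothing is read from a count over so few genes.

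Markers of other cells were low in the cycling cells, partly through the rule. The 11 cortex markers summed to 197 CPM (165 to 234) against 174 CPM (166 to 183) in non-cycling chromaffin cells, with 8 of them found, *Fdx1* the most abundant and *Cyp11b2*, *Nr5a1* and *Akr1b7* at 0. Endothelial markers summed to 32.2 against 40.8 CPM, with 5 of 10 found, *Egfl7* the most abundant and *Emcn*, *Cdh5*, *Plvap*, *Flt1* and *Tek* at 0. Immune markers summed to 38.0 against 48.4 CPM, with 4 of 10 found, *Adgre1* the most abundant and *C1qa*, *Csf1r*, *Tyrobp*, *Ptprc*, *Cd68* and *Mrc1* at 0. Fibroblast markers, which the rule did not use, summed to 27.8 against 74.3 CPM with *Pdgfra* and *Lum* at 0, mural markers to 23.4 against 29.5 CPM, and no UMI of 5 lymphoid markers was found. *Sox2*, a marker of sustentacular cells, was at 0 in the cycling cells. Their part in the comparisons was not tested.

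Haemoglobin transcripts separated the groups through few cells. They summed to 42.4 against 2037 CPM, no cycling cell held more than 2 UMIs, and 47 of 2258 non-cycling cells held 3 or more. Without cells of 3 or more haemoglobin UMIs, an alternative added after the data had been seen, 250 genes were higher and 42 lower. Doublets were called by Scrublet in 1 of 94 cycling and 16 of 2258 non-cycling cells. Transcripts of both sexes of the pool were present. Among the cycling cells 45 had Y-linked UMIs without *Xist*, 14 had *Xist* alone, and 4 had both, 4.26% (1.17 to 10.5), against 0.930% (0.577 to 1.42) of non-cycling cells at their lower depth. Leaving out cells with both left 90 cycling cells and 277 higher genes.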

How the data were processed

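The authors processed 1 library with Cell Ranger 4.0.0 against mm10, per the labels, and deposited raw UMI counts for 32285 genes in 11214 barcodes, 51421499 UMIs in all. The annotation version is not given in the sources used here. No cell annotation was used, so cells were chosen by UMIs of named genes. The members and gene lists were chosen with earlier results of these data known.

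Counts were summed over the cells of a group and divided by its UMIs. Intervals were exact Poisson for levels, Clopper-Pearson for shares and conditional binomial for ratios, at 95%, and cover counting error only. The limit for a share of 0 is the upper end of its Clopper-Pearson interval. Genes with a mean of at least 20 CPM were compared on log2(CPM + 1), and called at 2-fold. With 1 library no test between samples, p-value or count model was used, and cells are not replicates. Thinning drew 2000 UMIs per cell. Doublets were called with Scrublet (scanpy 1.11.5, expected rate 8%), kept, and left out as an alternative. Phase lists came from Seurat 5.3.0 in R 4.3.3, and other steps used Python 3.11.15, numpy 2.4.6, scipy 1.17.1 and pandas 2.3.3. The sums and ratios were tested on simulated data.

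Named genes are those of the rule, markers of the study, the 4 genes of each list with the most UMIs, the 10 highest ratios, the 10 highest outside cycle lists and the 15 lowest, ranked with 10 CPM added among genes found in at least 25% of cells of the higher group, and the genes of a list with 5 or fewer past 2-fold. Others were named after their values were seen. Promoter windows were taken from RefSeq, and coordinates are 1-based on GRCm38.p6. Some genes of the lists are not reported here by name.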

Additional observations from a re-analysis of the deposited data

Results flagged for a closer look

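Barcodes outside the comparisons also carried chromaffin and cycle genes. Of 78 barcodes with over 5000 genes, 5 met the rest of the rule, with a median of 20725 UMIs. *Mki67* was found in 4 and *Top2a* in 4 of them, *Chga* was at 15465 CPM, no UMI of the cortex marker *Star* or the endothelial marker *Emcn* was found, and 0 were called doublets. A further 82 barcodes had enough chromaffin and cycle genes but at least 3 genes of another cell type, 50 of them of cortex, 34 of endothelium and 6 of immune cells, with some in more than 1 list. In these *Chga* was at 6808 CPM, *Star* at 1632 CPM, *Emcn* at 198 CPM and *Mki67* at 259 CPM, and Scrublet called 44 of them doublets (53.7%).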

How the results depend on the processing

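With 2 cycle genes enough, there were 240 cycling chromaffin cells (9.61% of chromaffin cells), 75 genes higher and 2 lower, an *Mki67* ratio of 79.1 and 25.4% noradrenaline-marked cells. With 4 needed, the share was 2.76%, 101 genes were lower and the *Pnmt* ratio was 0.946. With no UMI of the cortex, endothelial and immune genes allowed, 32 cells (2.70%) remained, with 523 genes higher, 293 lower, a *Pnmt* ratio of 1.02 and 6.25% noradrenaline-marked cells. Thinning to 2000 UMIs gave 685 higher and 344 lower genes and means over cells 380 and 76. A minimum of 5 CPM gave 645 and 293, and of 50 CPM 98 and 7. With 10 CPM added 9 genes were lower, and within the same range of UMIs, added after the data were seen, 198. The *Mki67* ratio was 108 against cells with under 3 cycle genes. The *Pnmt* ratio was 0.912 without cells with *Xist* and Y-linked UMIs, 0.750 when thinned, 0.806 against cells with no cycle gene, 0.777 over cell means, 0.844 scaled to the median ratio, 1.01 within the same range of UMIs and 0.750 among *Pnmt*-high cells. The counts of lower genes and the *Pnmt* ratio thus depended on these settings, and the cause was not tested.

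Of 1806 values for 121 named genes, 1487 moved by less than counting error, 317 by more, and 2 were counted as reversed. The reversed ones were *Orc6*, with a ratio of 0.587 when no UMI of other cell types was allowed, and *Cox8b*, with 1.40 (0.362 to 3.93) among *Pnmt*-high cells. The latter rests on 4 UMIs in a class that leaves out cells high in *Cox8b* by definition, so nothing is read from it. These 2 are not all the ratios that crossed 1. The *Pnmt* ratio, below 1 in all cells, was 1.01 (0.971 to 1.06) within the same range of UMIs and is not among them. No paired analysis was possible because there is 1 library. The number of cycling cells limits all shares within them, and genes of a few UMIs cannot be compared at this depth.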
